A study of Saccharomyces cerevisiae with 16 samples.

Results

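Ribosome biogenesis factors are the proteins that build ribosomes but are not part of the finished particle. The 53 factors described here were chosen by name, with earlier results of these data known. They fall in 3 classes: 8 proteins of the snoRNPs (the small nucleolar RNA-protein particles that modify and fold ribosomal RNA), 27 proteins of the small-subunit processome and the steps that follow it, and 18 assembly factors of the large, 60S subunit. Of the 6074 genes of the table, 52 are such factors. The other factor, the snoRNP protein gene RRP9, was not analysed here. A gene entered the test if, in every mutant, no more than 1 of the 4 arrays lacked a value for it, which held for 49 factors (7 snoRNP, 25 small-subunit and 17 60S) among 5147 genes. BRX1, PWP2 and UTP20 had too few values and are described by their values where they occur.

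The values come from 16 spotted 2-colour arrays of exponentially growing budding yeast in rich medium to which tryptophan and adenine were added, 4 arrays for each mutant. The mutants were set1htz1sir2, which by its label combines mutations of SET1, HTZ1 and SIR2; set1htz1, which combines those of SET1 and HTZ1; H3K4A, in which lysine 4 of histone H3 is replaced by alanine; and set1. Each array set a mutant culture against a paired wild-type culture, and all cultures shared the same medium and growth phase. No source used here gives the strain background, the mating type, how the alleles were built or the number of clones. Set1 is the methyltransferase for lysine 4 of histone H3, HTZ1 is the gene of the variant histone H2A.Z, and Sir2 is a histone deacetylase of silent chromatin and of the ribosomal DNA. Messenger RNA was labelled for set1htz1sir2, set1htz1 and set1, whereas for H3K4A the deposited description gives total RNA and the labels give polyA RNA. A difference between H3K4A and another mutant and a difference in RNA input therefore cannot be told apart.

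Every value is a log2 ratio of mutant over wild-type signal, scaled by the authors to the total signal of each sample, so that a value above 0 means more signal from the mutant. RNA came from whole cultures, so fewer cells that express a gene and less RNA per cell cannot be told apart. The mutant was labelled with Cy5 on arrays 1 and 3 and with Cy3 on arrays 2 and 4. Array values are given below in the order of arrays 1 to 4, fitted values are followed by ± their standard error, and adjusted p-values are those of a limma fit to all 16 arrays. A gene is called when its adjusted p, corrected over the 5147 genes by the method of Benjamini and Hochberg, is under 0.05. The 4 arrays of a mutant are independent biological replicates, per the deposited description. The log2 ratio of SET1 averaged -2.31 ± 0.22 (SD, n = 4) in set1htz1sir2, -2.34 ± 0.45 in set1htz1, -0.14 ± 0.15 in H3K4A and -2.67 ± 0.42 in set1. That of SIR2 averaged -2.44 ± 0.28 in set1htz1sir2 and -0.10, -0.17 and -0.14 in set1htz1, H3K4A and set1. HTZ1 averaged -2.94 ± 0.26 in set1htz1 and had no value on the set1htz1sir2 arrays, where its label cannot be checked this way.

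In yeast, RNA polymerase I makes a long precursor of the ribosomal RNAs in the nucleolus. The snoRNPs modify this precursor, and the small-subunit processome folds and cuts its first part into the small, 40S subunit. A separate set of assembly factors, GTPases and export factors turns the remainder into the 60S subunit. Genes for these factors and genes for ribosomal proteins are known to be expressed together in fast growth and lowered together in stress.

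In the fit to all 16 arrays the mutant with the most calls among the factors was set1htz1, and nearly all of these calls were lower. They cover 46.9% of the factors, near the 47.5% of all genes, so their number is no trait of the factors. With only the arrays of each mutant in the fit, set1htz1sir2 had more calls, 61.2% of the factors against 53.1% in set1htz1. In set1htz1sir2, 8 of the 49 factors tested were higher than wild type and 9 were lower. These are 16.3% and 18.4% of the factors, against 24.1% and 26.3% of all genes tested (50.4% in either direction). The count and the split moved with the processing, to 10 higher and 7 lower once the arrays were centred on their own medians. That is 20.4% and 14.3%, against 25.8% and 23.9% of all genes. Of the factors tested, 30 were called with only the arrays of this mutant, 10 with quantile normalization and 11 where all 4 values were required. These are 61.2%, 20.4% and 28.9% of the factors in those fits, against 64.1%, 38.4% and 52.3% of all genes, so with only its own arrays the share of the factors was near that of all genes. In set1htz1, 1 factor was higher and 22 were lower, 2.04% and 44.9%, against 21.2% and 26.3% of all genes (47.5% in either direction). The share that was lower lay above that of all genes and the share that was higher below it. After centring the counts were 3 higher and 18 lower, 6.12% and 36.7%, against 23% and 24.1% of all genes.

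In H3K4A no factor was called in either direction, where 3.59% of all genes were called higher and 0.602% lower (4.2% together), and 11 factors (22.4%) had an unadjusted p under 0.05, against 16% of all genes. The count of 0 did not hold in every fit. After quantile normalization between arrays 1 factor was higher and 13 were lower in H3K4A, 2.04% and 26.5%, against 8.9% and 6.37% of all genes. With a dye term for each mutant 1 was lower (2.04%, against 1.11% of all genes). With the set1 arrays left out 2 were lower (4.08%, against 0.894% of all genes). In set1, 6 factors were higher and 1 was lower, 12.2% and 2.04%, against 9.05% and 9.79% of all genes (18.8% together). Single arrays decided part of these counts: 9 factors were called in set1htz1sir2 without its array 2, 13 in set1htz1 without its array 3, and 2 in set1 without its array 4. These are 18.4%, 26.5% and 4.08% of the factors. The shares of all genes called in these fits were 42.8%, 37.5% and 11.6%, also below those with all 16 arrays. Of the 49 factors, 16 were called in no mutant, 20 in 1 mutant, 12 in 2 mutants and 1, ENP2, in 3 mutants. These are 32.7%, 40.8%, 24.5% and 2.04% of the factors, against 30.7%, 30.4%, 27.6% and 9.95% of all genes, of which a further 1.38% were called in all 4 mutants.

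**Figure D1:**
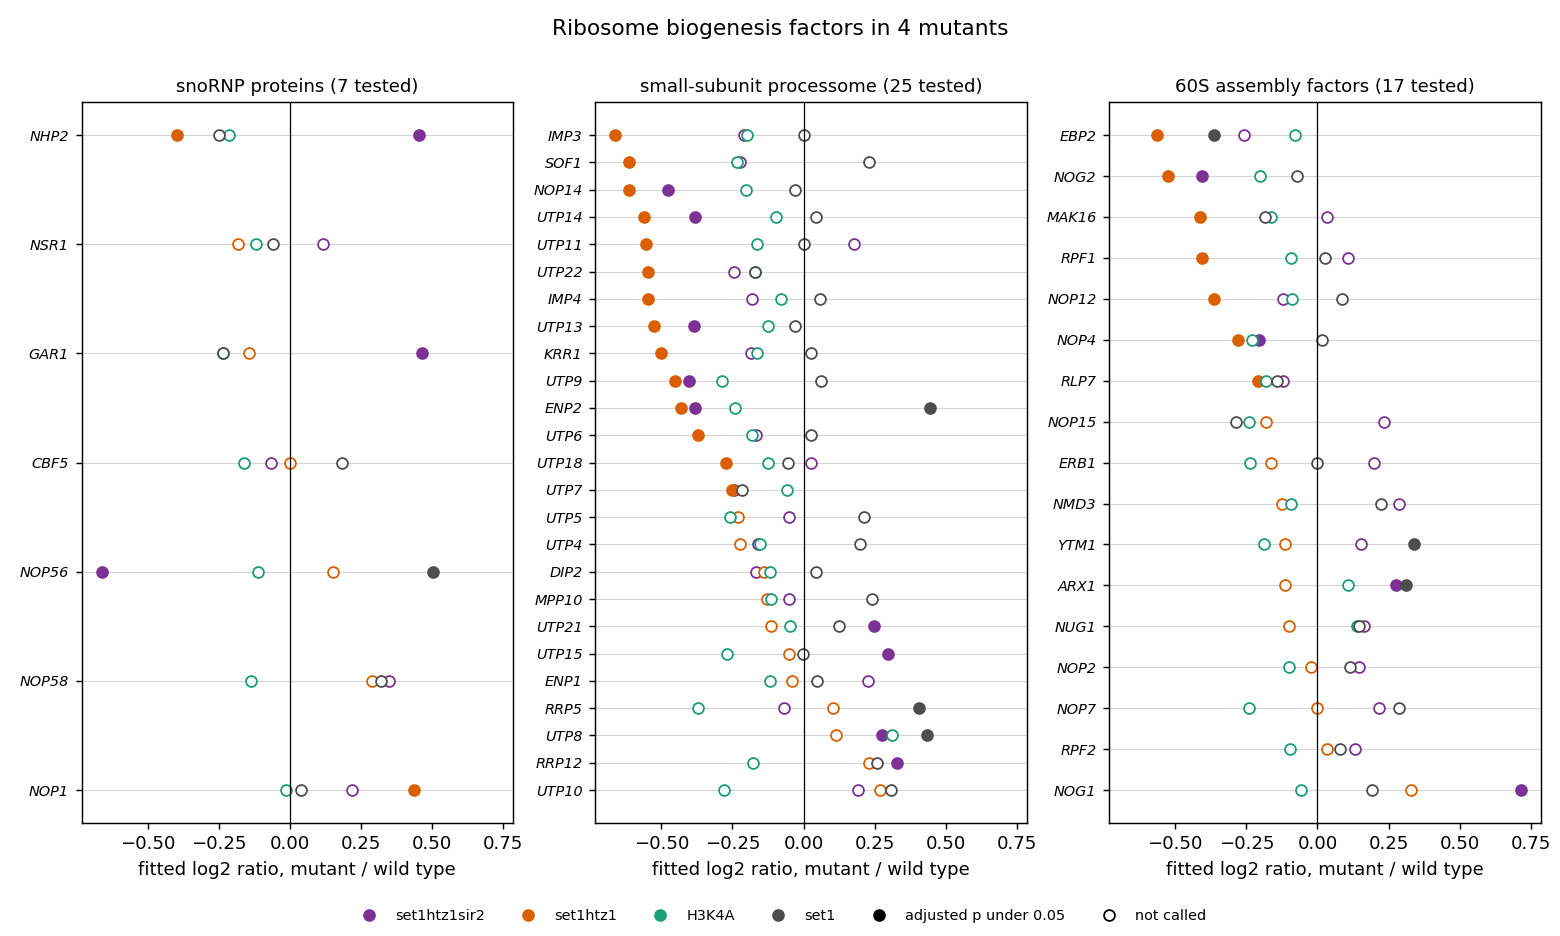
Fitted log2 ratio of mutant over wild type (x axis) for each of the 49 factors tested, in 1 panel per class, with rows ordered by the value in set1htz1 and filled points called at an adjusted p under 0.05. In the small-subunit panel 14 of 25 points of set1htz1 (56%, against 26.3% of all genes) are filled and lie left of 0, while no point of H3K4A is filled in any panel.

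By class, the median fitted log2 ratio of the snoRNP proteins was 0.22 in set1htz1sir2, 0.00 in set1htz1, -0.13 in H3K4A and 0.04 in set1. For the small-subunit factors the medians were -0.17, -0.27, -0.16 and 0.05 in the same order, and for the 60S factors 0.15, -0.16, -0.10 and 0.08. The median of all genes tested lay between -0.04 and -0.02 in each mutant. In set1htz1, 14 of 25 small-subunit factors (56%), 7 of 17 60S factors (41.2%) and 1 of 7 snoRNP proteins (14.3%) were lower, against 26.3% of all genes. In set1htz1sir2 the same counts were 6, 2 and 1 (24%, 11.8% and 14.3%), each under the 26.3% of all genes. Beside them 4, 2 and 2 were higher (16%, 11.8% and 28.6%), against 24.1% of all genes.

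Single arrays show the same shift of the small-subunit class in set1htz1, where the median of that class was -0.33, -0.27, -0.41 and -0.18. Of the 23 small-subunit factors with a value on all 4 of these arrays, 16 were below 0 on every array. Over all 3 classes that count was 25 of 47 factors (53.2%), against 33% of all genes with 4 values, and 6 were above 0 on all 4 arrays (12.8%), against 26.2% of all genes. A majority of these 47 factors were thus below wild type on each array of this mutant. In set1htz1sir2, 10 of 50 factors lay below 0 on all arrays and 14 above, 20% and 28%, against 33% and 27.8% of all genes. In H3K4A, 13 of 43 factors were below 0 on all arrays (30.2%) and none was above, against 9.21% and 11.6% of all genes. These H3K4A shares by sign stand beside no called factor. In set1, 9 of 48 factors were above 0 on all arrays and 1 was below, 18.8% and 2.08%, against 11.3% and 13.2% of all genes.

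**Figure D2:**
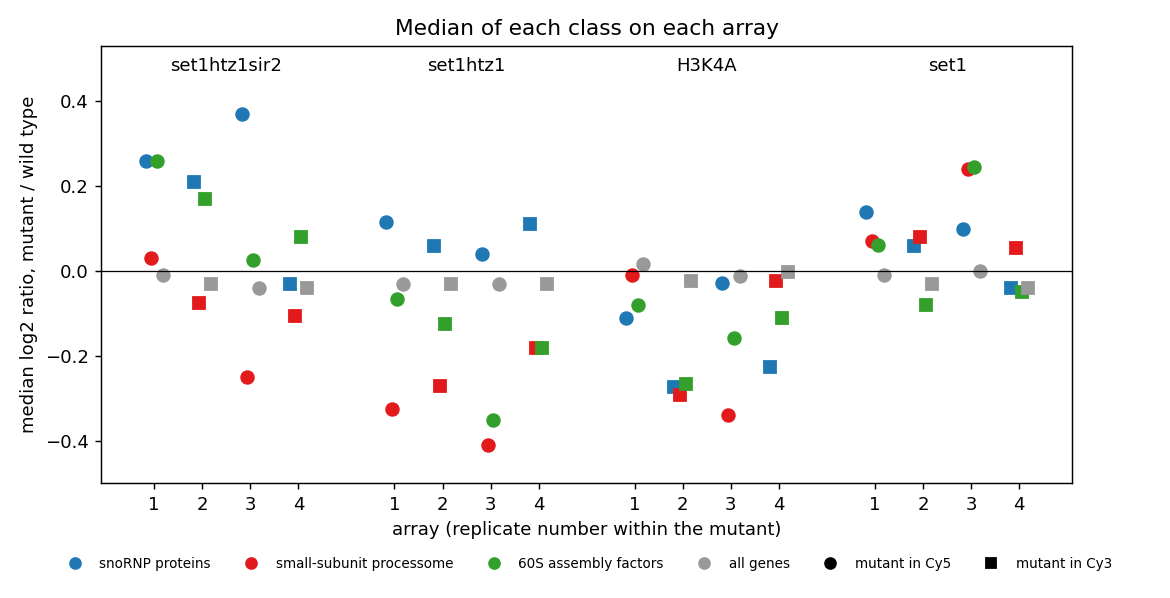
Median log2 ratio of mutant over wild type (y axis) of each class on each of the 16 arrays, with all genes in grey, circles where the mutant was in Cy5 and squares where it was in Cy3. The small-subunit class lies between -0.41 and -0.18 on the 4 arrays of set1htz1, and its medians on the H3K4A arrays run between -0.34 and -0.01.

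The dye moved with some values, above all in set1. The mean with the mutant in Cy5 and the mean with it in Cy3 had opposite signs for 14 of 50 factors in set1htz1sir2, 7 of 47 in set1htz1, 10 of 43 in H3K4A and 32 of 48 in set1. This count was not made over all genes, so it cannot tell a trait of the factors from one of the arrays. The dye term of the fit was called for 13 of the 49 factors, 4 of them snoRNP proteins, and for 1009 of all 5147 genes. Its part in the calls of single factors was not tested beyond the fits without it.

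The box C/D snoRNPs guide ribose methylation of ribosomal RNA through the methyltransferase fibrillarin, Nop1 in yeast, and the core proteins Nop56 and Nop58. NOP56 (YLR197W) was lower in set1htz1sir2 and higher in set1. Its array values were -0.81, -0.69, -0.67 and -0.47 in set1htz1sir2, 0.08, 0.06, 0.04 and 0.43 in set1htz1, 0.19, -0.36, -0.26 and -0.02 in H3K4A and 0.34, 0.60, 0.10 and 0.97 in set1. All set1htz1sir2 values lay below 0 and all set1 values above it, with no overlap between them. The fitted value was -0.66 ± 0.11 (adjusted p = 0.00011) in set1htz1sir2, or 0.633 times the wild-type signal, and 0.50 ± 0.11 (adjusted p = 0.00511) in set1, or 1.42 times; the call in set1 was lost without array 4 of set1.

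NOP1 (YDL014W) was the only snoRNP gene called higher in set1htz1, with 0.37, 0.45, 0.82 and 0.11 on its arrays and a fitted value of 0.44 ± 0.15 (adjusted p = 0.0198). Without array 1 or array 3 of set1htz1 that call was lost. In H3K4A its values were -0.26, 0.07, 0.02 and 0.12, on both sides of 0. NOP58 (YOR310C) was called in no mutant, with 0.55, 0.34, 0.54 and -0.03 in set1htz1sir2, 0.31, 0.25, 0.40 and 0.19 in set1htz1 and 0.58, -0.40, 1.46 and -0.36 in set1. In set1htz1 all 4 of its values were above 0, while in set1 the sign followed the dye, with means of 1.02 with the mutant in Cy5 and -0.38 with it in Cy3.

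The box H/ACA snoRNPs carry the pseudouridine synthase Cbf5 with the small core proteins Nhp2 and Gar1. NHP2 (YDL208W) moved in opposite directions in the 2 multiple mutants. Its values were 0.54, 0.54, 0.53 and 0.21 in set1htz1sir2, -0.69, -0.27, -0.69 and 0.06 in set1htz1, -0.72, 0.01, 0.09 and -0.23 in H3K4A and -0.42, 0.06, -0.45 and -0.18 in set1. Every set1htz1sir2 value lay above every value of set1htz1. NHP2 was 0.46 ± 0.12 (adjusted p = 0.00516) in set1htz1sir2 and -0.40 ± 0.12 (adjusted p = 0.0134) in set1htz1, that is 1.37 and 0.759 times the wild-type signal. The call in set1htz1 was lost without its array 1 or its array 3, the arrays with the mutant in Cy5.

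GAR1 (YHR089C) also rose in set1htz1sir2, to 0.47 ± 0.13 (adjusted p = 0.00574), with array values of 0.16, 0.71, 0.37 and 0.62. In set1htz1 it had no value, -0.07, -0.42 and 0.32, in H3K4A -0.50, -0.15, -0.09 and -0.20 and in set1 -0.51, 0.43, -1.0 and 0.14. All H3K4A values were below 0, but no call was made there, and in set1 both Cy5 arrays were below 0 and both Cy3 arrays above it. CBF5 (YLR175W) was called in no mutant, with 0.26, 0.00, -0.10 and -0.42 in set1htz1sir2, 0.16, -0.43, -0.06 and -0.31 in H3K4A and 0.30, -0.30, 0.77 and -0.04 in set1. NSR1 (YGR159C), which encodes yeast nucleolin, was also without a call. It had 0.42, -0.15, 0.43 and -0.23 in set1htz1sir2, -0.06, 0.15, -0.22 and -0.60 in set1htz1, 0.11, -0.27, -0.03 and -0.29 in H3K4A and 0.14, -0.58, 0.55 and -0.34 in set1. The values of CBF5 and NSR1 lay on both sides of 0 in each of the mutants given.

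The UtpA complex is the first part of the processome to bind the growing precursor, and its yeast subunits in this set are encoded by UTP4, UTP5, UTP8, UTP9, UTP10 and UTP15. They did not move as 1 block: in set1htz1sir2, UTP8 and UTP15 were higher and UTP9 was lower. UTP9 (YHR196W) read -0.25, -0.38, -0.42 and -0.56 in set1htz1sir2, where it was -0.40 ± 0.10 (adjusted p = 0.00264). In set1htz1 its fitted value was -0.45 ± 0.10 (adjusted p = 0.00117), with all 4 values between -0.51 and -0.40. In H3K4A it read -0.17, -0.40, -0.34 and -0.25, all below 0, with no call at an adjusted p of 0.138.

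UTP8 (YGR128C) was higher in set1htz1sir2 and in set1. Its values were 0.50, 0.30, 0.18 and 0.12 in set1htz1sir2, 0.24, 0.12, 0.08 and 0.01 in set1htz1, 0.62, no value, -0.03 and 0.32 in H3K4A and 0.26, 0.45, 0.24 and 0.78 in set1, so that 1 value of 15 was below 0. The fitted values were 0.28 ± 0.11 (adjusted p = 0.0472) in set1htz1sir2 and 0.43 ± 0.11 (adjusted p = 0.0112) in set1. The first of these calls was lost in 10 of the 16 fits that left out 1 array, and the second without array 4 of set1. UTP15 (YMR093W) had 0.24, 0.43, 0.10 and 0.41 in set1htz1sir2, where it was 0.30 ± 0.09 (adjusted p = 0.0144) and the call was lost without array 2 or array 4.

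UTP10 (YJL109C), a very large HEAT-repeat protein, was called in no mutant against wild type. As means of its 2 entries it had 0.07, 0.35, 0.22 and 0.44 in set1htz1, -0.28, -0.37, -0.55 and 0.07 in H3K4A and -0.04, 0.56, -0.20 and 0.91 in set1. In set1htz1 the entries disagreed in sign on array 1, at 0.28 and -0.15, and on array 4, at -0.06 and 0.94. In set1 both Cy5 means were below 0 and both Cy3 means above it. Neither entry alone had both Cy5 values below 0: they read -0.10 and 0.03 on array 1, and 0.07 and -0.47 on array 3. UTP4 and UTP5 were also without a call, with fitted values of -0.23 ± 0.12 and -0.23 ± 0.10 in set1htz1.

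The UtpB complex binds after UtpA and holds Utp6, Utp13, Utp18, Utp21, Dip2 and Pwp2. In set1htz1, 3 of its 5 tested members were lower (60%, against 26.3% of all genes) and all 5 were below 0, as were 54.1% of all genes. UTP13 (YLR222C) was lower in both multiple mutants, at -0.39 ± 0.10 (adjusted p = 0.00276) in set1htz1sir2 and -0.53 ± 0.10 (adjusted p = 0.000228) in set1htz1. On the set1htz1sir2 arrays it read -0.22, -0.42, -0.34 and -0.56, with no value above -0.22. UTP6 (YDR449C) and UTP18 (YJL069C) were lower in set1htz1, at -0.37 ± 0.14 (adjusted p = 0.0404) and -0.27 ± 0.11 (adjusted p = 0.0476). Both of these calls were lost without array 2 or array 3 of set1htz1 and when each array was centred on its own median, and that of UTP18 in 11 of the 16 fits that left out 1 array.

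In set1, UTP18 had 0.21, -0.42, 0.24 and -0.25, on both sides of 0. UTP21 (YLR409C) was higher in set1htz1sir2 at 0.25 ± 0.09 (adjusted p = 0.0291), a call lost without array 1, 2 or 3 of that mutant. In H3K4A it read 0.18, -0.11, -0.25 and -0.02. DIP2 was called in no mutant. PWP2 (YCR057C), which was not tested because set1htz1 had no value, read 0.25, 0.26, -0.38 and 0.15 in set1htz1sir2, 0.34, -0.70, -0.79 and 0.09 in H3K4A and -0.06, 0.08, 0.46 and 0.07 in set1. In an added fit that asked for values in the compared groups only, PWP2 was called in none of these mutants.

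Imp3, Imp4 and Mpp10 form a complex that pairs the U3 snoRNA with the precursor. IMP3 (YHR148W) and IMP4 (YNL075W) were lower in set1htz1. IMP3 read 0.07, -0.32, -0.25 and -0.34 in set1htz1sir2, -0.51, -0.74, -0.69 and -0.71 in set1htz1 and 0.03, -0.12, 0.38 and -0.29 in set1. Its highest set1htz1 value lay below its lowest value in each of the other mutants given. The fitted value in set1htz1 was -0.66 ± 0.09 (adjusted p = 7.34e-06), or 0.632 times the wild-type signal, and in set1htz1sir2 it was -0.21 ± 0.09 (adjusted p = 0.0529). IMP4 was -0.55 ± 0.11 (adjusted p = 0.000468) in set1htz1, with values between -0.60 and -0.47. MPP10 (YJR002W) was not called in any mutant and was -0.13 ± 0.11 in set1htz1, so that the members of this complex differed in their values there.

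SOF1 (YLL011W), a WD-repeat protein of the processome, read -0.56, -0.60, -0.67 and -0.62 in set1htz1 and 0.61, -0.18, 0.64 and -0.15 in set1. The set1htz1 values lay close together, with an SD of 0.05 (n = 4), whereas in set1 the Cy5 arrays were high and the Cy3 arrays low. SOF1 was -0.61 ± 0.11 (adjusted p = 0.000234) in set1htz1.

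ENP2 (YGR145W), whose product joins the processome with Bfr2, was called in 3 mutants. It read -0.22, -0.36, -0.34 and -0.60 in set1htz1sir2, -0.27, -0.62, -0.54 and -0.30 in set1htz1, no value, -0.40, -0.38 and -0.02 in H3K4A and 0.66, 0.12, 0.55 and 0.45 in set1. All values of set1 were above 0 and all values of the other mutants below it. The fitted values were -0.38 ± 0.10 (adjusted p = 0.0045) in set1htz1sir2, -0.43 ± 0.10 (adjusted p = 0.00192) in set1htz1 and 0.45 ± 0.10 (adjusted p = 0.0053) in set1. Each of these calls was kept in all 16 fits that left out 1 array.

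NOP14 (YDL148C), UTP14 (YML093W) and UTP7 (YER082C) were lower in both multiple mutants. NOP14, a scaffold protein of the processome, read -0.62, -0.30, -0.60 and -0.38 in set1htz1sir2 and -0.69, -0.43, -1.06 and -0.27 in set1htz1, all below 0. It was -0.48 ± 0.17 (adjusted p = 0.0271) in set1htz1sir2, a call lost without any single one of its 4 arrays, and -0.61 ± 0.17 (adjusted p = 0.00638) in set1htz1. UTP14, which activates the helicase Dhr1, was -0.38 ± 0.11 (adjusted p = 0.00682) in set1htz1sir2, a call lost without its array 2, and -0.56 ± 0.11 (adjusted p = 0.00038) in set1htz1. UTP7, for a WD-repeat protein, was -0.25 ± 0.10 (adjusted p = 0.0409) in set1htz1sir2 and -0.25 ± 0.10 (adjusted p = 0.0392) in set1htz1, and both calls were lost on centring each array on its median and in 4 and 3 of the 16 fits that left out 1 array, among these the fits without array 2 or array 3 of the mutant itself. Its values were 0.08, -0.26, -0.09 and 0.04 in H3K4A and -0.43, 0.11, -0.45 and -0.09 in set1.

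UTP11 (YKL099C), UTP22 (YGR090W) and KRR1 (YCL059C) were called lower in set1htz1 and in no other comparison with wild type. UTP11 read 0.20, 0.16, 0.03 and 0.32 in set1htz1sir2 and -0.42, -0.67, -1.09 and -0.04 in set1htz1, with no overlap. It was -0.56 ± 0.12 (adjusted p = 0.000838) in set1htz1 and 0.18 ± 0.12 (adjusted p = 0.226) in set1htz1sir2. UTP22, the subunit of the UtpC complex that works with Rrp7, was -0.55 ± 0.11 (adjusted p = 0.000469) in set1htz1, and in set1 it had no value, -0.25, -0.40 and 0.08. KRR1, a KH-domain protein, was -0.50 ± 0.13 (adjusted p = 0.00325) in set1htz1.

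RRP5 (YMR229C), which is needed for both subunits, read -0.70, -0.19, -0.48 and -0.11 in H3K4A and -0.23, 0.97, -0.30 and 1.18 in set1. All H3K4A values were below 0, and in set1 the values with the mutant in Cy5 were below 0 and those in Cy3 near or above 1. Its set1 value of 0.41 ± 0.12 (adjusted p = 0.0284) was not called without the dye term, nor without array 2 or array 4 of set1. RRP12 (YPL012W), a HEAT-repeat protein of late maturation and export, read 0.36, 0.50, 0.25 and 0.20 in set1htz1sir2 and 0.19, 0.25, no value and 0.29 in set1htz1, every value above 0. It was 0.33 ± 0.10 (adjusted p = 0.0108) in set1htz1sir2, and the call was lost without array 1 or array 2. ENP1, another late factor of the small subunit, was called in no mutant. UTP20 (YBL004W) had values only on the H3K4A arrays, -0.28, 0.26, no value and -0.08.

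**Figure D3:**
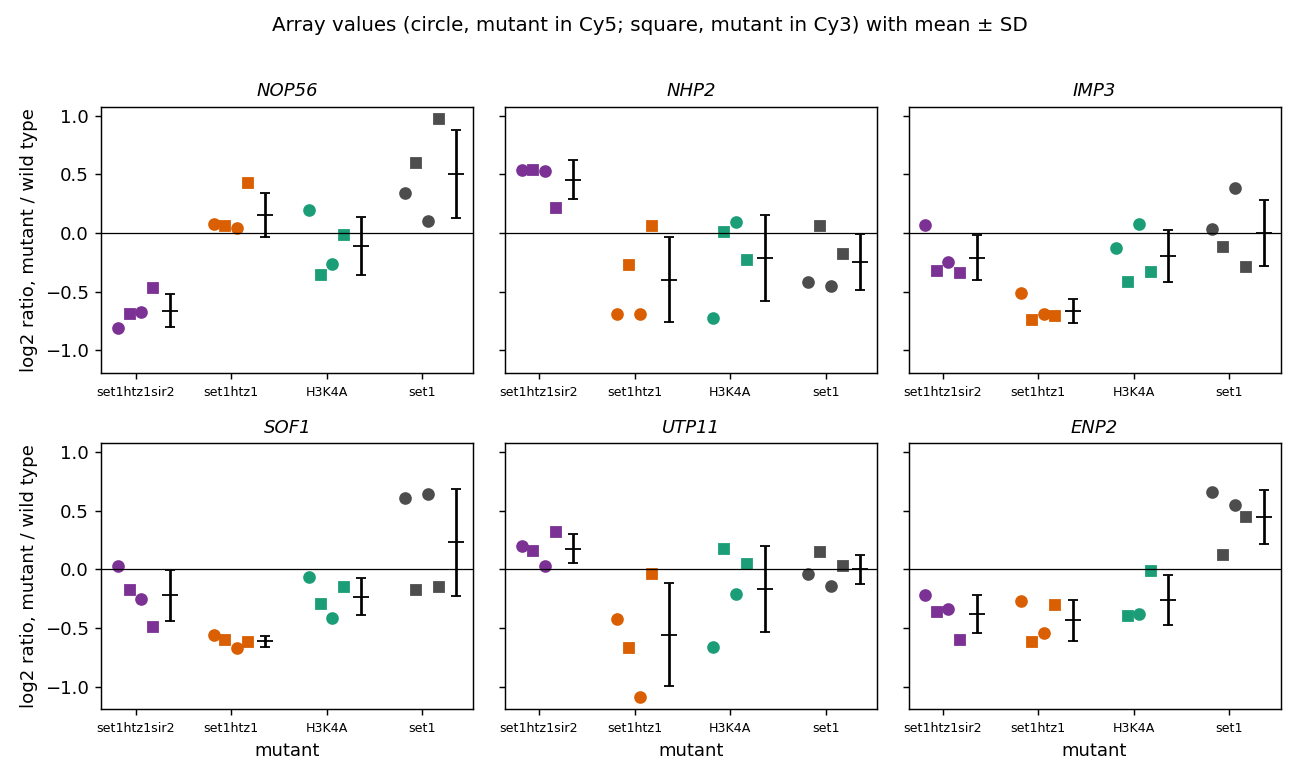
Log2 ratio of mutant over wild type (y axis) on each array for 6 factors, by mutant (x axis), with circles for the mutant in Cy5, squares for the mutant in Cy3, and the mean ± SD beside them. NOP56 has its 4 set1htz1sir2 values between -0.81 and -0.47, the set1htz1 values of IMP3 and SOF1 lie between -0.74 and -0.51, and ENP2 is above 0 in set1 alone.

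Of the 17 60S factors tested, 2 were higher (11.8%) and 2 lower (11.8%) in set1htz1sir2, against 24.1% and 26.3% of all genes, and none was higher and 7 lower (41.2%) in set1htz1, against 21.2% and 26.3%. Nug1, Nog1 and Nog2 are GTPases of 60S maturation, and their genes were called differently. NOG1 (YPL093W) read 0.68, 0.94, 0.46 and 0.78 in set1htz1sir2, 0.40, 0.20, 0.03 and 0.69 in set1htz1 and 0.45, -0.27, -0.38 and -0.03 in H3K4A. All values of both multiple mutants were above 0. It was 0.72 ± 0.14 (adjusted p = 0.000373) in set1htz1sir2, or 1.64 times the wild-type signal, and 0.33 ± 0.14 (adjusted p = 0.0631) in set1htz1.

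NOG2 (YNR053C) was lower in both multiple mutants. It read -0.56, -0.03, -0.49 and -0.54 in set1htz1sir2 and -0.49, -0.60, -0.79 and -0.22 in set1htz1, below 0 on every array. The fitted values were -0.41 ± 0.11 (adjusted p = 0.00651) in set1htz1sir2 and -0.53 ± 0.11 (adjusted p = 0.00102) in set1htz1, and both calls were kept in all 16 fits that left out 1 array. NUG1 (YER006W) had 0.45, -0.19, 0.12 and 0.18 in H3K4A and was called in no mutant.

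Brx1 and Ebp2 work together early in 60S assembly. BRX1 (YOL077C) had no H3K4A value and so was not in the test; it read 0.96, 0.76, 0.88 and 0.64 in set1htz1sir2, 0.26, 0.19, 0.31 and 0.00 in set1htz1 and 0.67, -0.30, 1.08 and -0.38 in set1. All set1htz1sir2 values were above all set1htz1 values, and in set1 the sign followed the dye. In the added fit that asked for values in the compared groups only, it was 0.81 ± 0.14 in set1htz1sir2 with limma's adjusted p = 0.000183. EBP2 (YKL172W) read 0.01, -0.29, -0.32 and -0.43 in set1htz1sir2, -0.40, -0.58, -1.09 and -0.18 in set1htz1 and -0.38, -0.15, -0.34 and -0.58 in set1, with 1 value of 12 above 0. It was -0.56 ± 0.12 (adjusted p = 0.000696) in set1htz1 and -0.36 ± 0.12 (adjusted p = 0.0375) in set1, where it was the only factor called lower; that call was lost without array 1, 3 or 4 of set1, and without the dye term.

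Nop7, Erb1 and Ytm1 form a complex needed to process the precursor of the large-subunit RNA. YTM1 (YOR272W) was higher in set1 at 0.34 ± 0.10 (adjusted p = 0.0176), a call lost without array 2 or array 3. Its values were -0.14, -0.04, -0.32 and 0.04 in set1htz1, 0.00, -0.43, -0.21 and -0.11 in H3K4A and 0.19, 0.43, 0.48 and 0.26 in set1. NOP7 (YGR103W) read 0.11, -0.04, -0.09 and 0.01 in set1htz1, -0.10, -0.31, -0.21 and -0.34 in H3K4A and 0.42, -0.04, 0.77 and 0.00 in set1, and ERB1 (YMR049C) read -0.08, -0.48, -0.16 and -0.24 in H3K4A. All H3K4A values of NOP7 and ERB1 lay below 0, without a call.

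Mak16 and Rpf1 belong to a complex of early 60S factors, and both genes were lower in set1htz1. MAK16 (YAL025C) read -0.06, -0.71, -0.58 and -0.30 in set1htz1 and -0.03, -0.40, 0.36 and -0.67 in set1, and it was -0.41 ± 0.11 (adjusted p = 0.00517) in set1htz1. RPF1 (YHR088W) was -0.41 ± 0.13 (adjusted p = 0.0172) there. The RNA-binding factor gene NOP12 (YOL041C) read -0.22, -0.42, -0.54 and -0.27 in set1htz1, all below 0, and 0.31, -0.07, 0.23 and -0.12 in set1. It was -0.36 ± 0.10 (adjusted p = 0.00483) in set1htz1. The calls of MAK16, RPF1 and NOP12 were each lost without array 3 of set1htz1.

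NOP4 (YPL043W), for an RNA-binding factor with several recognition motifs, was lower in both multiple mutants, at -0.21 ± 0.08 (adjusted p = 0.0419) in set1htz1sir2 and -0.28 ± 0.08 (adjusted p = 0.00858) in set1htz1. In set1htz1sir2 it read -0.01, -0.36, -0.14 and -0.32, as means of 2 entries, 1 of them with a prefix z of unstated meaning. The z entry averaged -0.28 there and the other -0.13, and the value on array 3 is that of the z entry alone. The call in set1htz1sir2 was lost on centring each array on its median and in 5 of the 16 fits that left out 1 array. It was also lost without the z entries, without the dye term, with quantile normalization and with a replicate block in place of the dye term. The call in set1htz1 was lost without its array 3. RLP7 (YNL002C), for a relative of a ribosomal protein, was -0.21 ± 0.08 (adjusted p = 0.0469) in set1htz1, a call lost in 8 of the 16 fits that left out 1 array. NOP15 (YNL110C) had -0.53, 0.17, -0.34 and -0.26 in H3K4A and -0.07, -0.34, 0.01 and -0.74 in set1, without a call in any mutant. RPF2 (YKR081C) had 0.23, 0.06, -0.42 and 0.26 in set1htz1 and no call either, and NOP2 (YNL061W), for a methyltransferase of the large-subunit RNA, was likewise without one.

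Arx1 and Nmd3 accompany the 60S subunit to the cytoplasm. ARX1 (YDR101C) was higher in set1htz1sir2 and in set1. It read 0.40, 0.26, 0.41 and 0.04 in set1htz1sir2, -0.04, -0.15, -0.06 and -0.20 in set1htz1, 0.47, no value, -0.21 and 0.13 in H3K4A and 0.38, 0.16, 0.33 and 0.38 in set1. All set1htz1 values were below 0 and all values of set1htz1sir2 and set1 above it. The fitted values were 0.28 ± 0.10 (adjusted p = 0.0242) in set1htz1sir2 and 0.31 ± 0.10 (adjusted p = 0.0322) in set1. Each of these 2 calls was lost in 3 of the 16 fits that left out 1 array. NMD3 (YHR170W) read 0.54, 0.26, 0.24 and 0.11 in set1htz1sir2, all above 0, and was 0.29 ± 0.13 (adjusted p = 0.0659), which is not a call.

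The comparison of set1htz1sir2 with set1htz1 asks what the loss of SIR2 adds. Of the 49 factors, 3 were higher and 1 was lower in set1htz1sir2, 6.12% and 2.04%, against 7.25% and 5.4% of all genes (12.6% in either direction). In this fit neither share lay above that of all genes, which did not hold in every other fit (below). The difference was above 0 for 43 of 49 factors, with a median of 0.22, against 52.7% of all genes and a median of 0.02. It was above 0 for all 17 60S factors, with a median of 0.27 and no call, and for 22 of 25 small-subunit factors. The 60S differences ran between 0.07 and 0.51, and 5 of the 17 (29.4%) had an unadjusted p under 0.05, which is near the 27% of all genes.

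The factors called were NHP2, with a difference of 0.85 ± 0.18 (adjusted p = 0.00355); UTP11, with 0.73 ± 0.17 (adjusted p = 0.00744); IMP3, with 0.45 ± 0.12 (adjusted p = 0.022); and NOP56, with -0.81 ± 0.16 (adjusted p = 0.0028). The calls of NHP2, UTP11 and NOP56 were kept in all 16 fits that left out 1 array. That of IMP3 was lost in 4 of them, among these the fit without array 3 of set1htz1. Without the set1 arrays in the fit 11 factors were called, and with only the arrays of these 2 mutants 15 were. The share called higher then lay above that of all genes, at 20.4% against 9.85% and 28.6% against 14%. With a dye term for each mutant it was 16.3% against 10.2%, while after centring each array it stayed below, at 6.12% against 7.17%. The share called lower was 2.04% in each of these fits. BRX1, outside the test, differed by 0.62 ± 0.19 in the added fit, with limma's adjusted p = 0.0467.

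**Figure D4:**
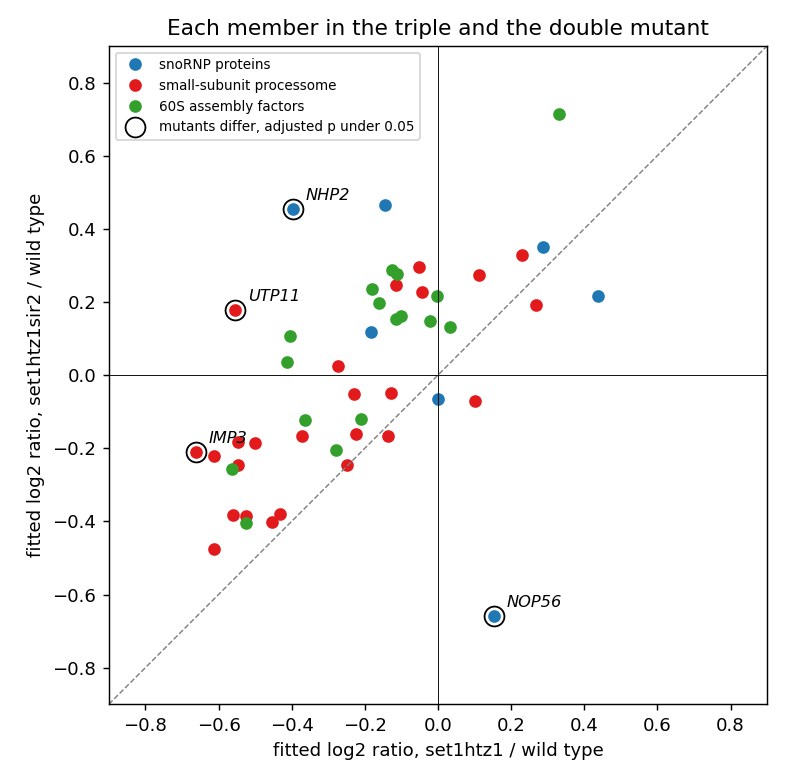
Fitted log2 ratio over wild type in set1htz1sir2 (y axis) against set1htz1 (x axis) for the 49 factors, coloured by class, with the dashed line where both are equal and rings around the 4 factors that differ between these mutants. Of the 49 points, 43 lie above the line, and NOP56 lies far below it.

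Of the 9 factors lower in set1htz1sir2, 8 (88.9%) were also among the 22 lower in set1htz1, of which they are 36.4%: UTP7, UTP9, UTP13, UTP14, ENP2, NOP14, NOP4 and NOG2. Of all genes, 1354 were lower in set1htz1sir2 and 1352 in set1htz1, and the 874 shared are 64.5% and 64.6% of these. Nothing particular to the factors is read from their overlap, which rests on 9 calls. These mutants have their own paired wild-type cultures. The 9th, NOP56, was 0.15 ± 0.11 in set1htz1.

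The comparison of set1htz1 with set1 asks what the loss of H2A.Z adds. Here 12 of 49 factors were lower and none was higher, 24.5%, against 10.3% of all genes lower and 9.03% higher (19.3% together). Over all factors 22 (44.9%) had an unadjusted p under 0.05, against 32.6% of all genes. The difference was below 0 for 45 of 49 factors, with a median of -0.30, against 52.7% of all genes and a median of -0.02. It was below 0 for all 25 small-subunit factors, with a median of -0.40. Those called were 9 small-subunit factors (36%) and 3 60S factors (17.6%), against the 10.3% of all genes, and no snoRNP protein.

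ENP2 differed by -0.88 ± 0.14 (adjusted p = 0.000482), SOF1 by -0.84 ± 0.16 (adjusted p = 0.00142) and IMP3 by -0.66 ± 0.12 (adjusted p = 0.00123). UTP14 and IMP4 differed by -0.61 ± 0.15 (adjusted p = 0.011) and -0.61 ± 0.15 (adjusted p = 0.011). These 5 calls were kept in all 16 fits that left out 1 array. The others were UTP11, at -0.56 ± 0.17 (adjusted p = 0.0256); UTP9, at -0.51 ± 0.14 (adjusted p = 0.0166); UTP13, at -0.50 ± 0.14 (adjusted p = 0.0162); UTP5, at -0.44 ± 0.15 (adjusted p = 0.0401); YTM1, at -0.46 ± 0.13 (adjusted p = 0.0231); NOP12, at -0.45 ± 0.14 (adjusted p = 0.0273); and ARX1, at -0.43 ± 0.14 (adjusted p = 0.0381). Each of these 7 was lost without array 3 of set1htz1, and with that array left out 5 factors were called. All 5 were lower, 10.2%, against 6.82% of all genes lower and 5.96% higher.

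The comparison of H3K4A with set1 sets the loss of the methylated residue against the loss of its enzyme. In it 6 factors were lower and none was higher, 12.2%, against 3.4% of all genes lower and 4.1% higher (7.5% together). The difference was below 0 for 43 of 49 factors, with a median of -0.18, against 48.9% of all genes. The factors called were RRP5, with -0.78 ± 0.18 (adjusted p = 0.0108); ENP2, with -0.69 ± 0.16 (adjusted p = 0.012); NOP56, with -0.61 ± 0.16 (adjusted p = 0.0272); UTP10, with -0.59 ± 0.16 (adjusted p = 0.0276); NOP7, with -0.53 ± 0.14 (adjusted p = 0.0321); and YTM1, with -0.53 ± 0.13 (adjusted p = 0.0222). Only the call of RRP5 was kept in all 16 fits that left out 1 array, and without the dye term it too was lost. With only the arrays of H3K4A and set1 in the fit no factor was called, against 1.87% of all genes. Without array 3 and array 2 of H3K4A, 2 and 3 factors were called (4.08% and 6.12%), against 5.65% and 5.89% of all genes. The difference in RNA input named above applies to all 6.

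Other genes of ribosome synthesis were counted by the same test, beside shares of all genes of 24.1% higher and 26.3% lower in set1htz1sir2, 21.2% and 26.3% in set1htz1, 3.59% and 0.602% in H3K4A, and 9.05% and 9.79% in set1. Of 33 other small-subunit factors, 6 were higher and 10 lower in set1htz1sir2, 3 higher and 21 lower in set1htz1, none in either direction in H3K4A, and 4 higher and 3 lower in set1. The shares were 18.2% and 30.3% in set1htz1sir2, near those of all genes, and 9.09% and 63.6% in set1htz1. Their medians were -0.02, -0.36, -0.10 and 0.02 in that order. RRP7, the partner of Utp22, was at -0.90 ± 0.10 (adjusted p = 1.29e-06) in set1htz1 and -0.61 ± 0.10 (adjusted p = 0.000386) in set1. EMG1, a methyltransferase of the small-subunit RNA, went the other way, at 0.79 ± 0.12 (adjusted p = 3.29e-05) in set1htz1sir2 and 0.89 ± 0.12 (adjusted p = 1.19e-05) in set1htz1. NOP9 was lowest in set1htz1sir2 at -0.62 ± 0.11 (adjusted p = 0.000112), and DIM1, an RNA dimethyltransferase, was highest in set1 at 0.68 ± 0.15 (adjusted p = 0.00364).

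Of 42 other 60S factors, 5 were higher and 11 lower in set1htz1sir2, 2 higher and 16 lower in set1htz1, none in H3K4A, and 3 higher and 2 lower in set1. The shares were 11.9% and 26.2% in set1htz1sir2 and 4.76% and 38.1% in set1htz1. Their medians were -0.09, -0.24, -0.11 and 0.07 in that order. NOP8 was lowest in set1htz1sir2 at -0.76 ± 0.12 (adjusted p = 4.86e-05) and TIF6, which keeps immature 60S subunits from joining, highest at 0.68 ± 0.10 (adjusted p = 2.29e-05). In set1htz1 RRP15 was lowest at -0.69 ± 0.11 (adjusted p = 8.32e-05) and the helicase gene HAS1 highest at 0.45 ± 0.10 (adjusted p = 0.00179). In set1 CGR1 was lowest at -0.44 ± 0.14 (adjusted p = 0.037) and HAS1 again highest at 0.51 ± 0.10 (adjusted p = 0.0023).

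Of 5 other snoRNP genes tested, SNU13, for a box C/D core protein, was higher in set1htz1sir2 at 0.93 ± 0.12 (adjusted p = 7.61e-06). HIT1 was lower in set1htz1 at -0.23 ± 0.08 (adjusted p = 0.0259), and NAF1 was higher in set1 at 0.40 ± 0.10 (adjusted p = 0.00736). Among 14 genes of RNA polymerase I and its factors, 4 were higher and 4 lower in set1htz1sir2, 4 and 5 in set1htz1, none in H3K4A, and 1 and 1 in set1. The shares were 28.6% and 28.6% in set1htz1sir2 and 28.6% and 35.7% in set1htz1. The polymerase subunit gene RPA14 was at 1.24 ± 0.14 (adjusted p = 1.63e-06) in set1htz1sir2 and 0.99 ± 0.17 (adjusted p = 0.000121) in set1htz1. UAF30 was lowest of that list in set1htz1sir2 at -0.43 ± 0.16 (adjusted p = 0.0293), and RRN9 in set1htz1 at -0.57 ± 0.10 (adjusted p = 0.000179) and in set1 at -0.32 ± 0.10 (adjusted p = 0.0359), where RRN7 was highest at 0.38 ± 0.11 (adjusted p = 0.0159).

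Among 13 regulators of ribosome genes, 1 was higher and 2 lower in set1htz1sir2, 2 higher and 3 lower in set1htz1, none in H3K4A, and 1 higher and 2 lower in set1. The shares were 7.69% and 15.4% in set1htz1sir2 and 15.4% and 23.1% in set1htz1. FHL1, for a factor bound at ribosomal protein genes, was at -0.40 ± 0.13 (adjusted p = 0.0166) in set1htz1sir2 and -0.50 ± 0.13 (adjusted p = 0.00431) in set1htz1. The kinase gene TOR2 was at 0.77 ± 0.12 (adjusted p = 4.12e-05) in set1htz1sir2, 0.89 ± 0.12 (adjusted p = 1.21e-05) in set1htz1 and 0.65 ± 0.12 (adjusted p = 0.00119) in set1. In set1 ABF1 was lowest at -0.30 ± 0.09 (adjusted p = 0.0233).

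Ribosomal proteins, unlike the factors, are part of the finished particle, and their genes gave other counts than the factors. Of 116 tested, 100 (86.2%) were higher and none was lower in set1htz1sir2, with a median of 0.61, beside a median of 0.03 for the factors. In set1htz1, 9 were higher (7.76%) and 2 lower (1.72%), with a median of 0.00 beside -0.18 for the factors. In H3K4A none was called and the median was -0.15 beside -0.16, and in set1 2 were higher with a median of 0.07 beside 0.05. RPL41A was highest in set1htz1sir2 at 1.56 ± 0.27 (adjusted p = 9.79e-05) and RPS11B the lowest of those called there at 0.24 ± 0.09 (adjusted p = 0.0268). RPL32 was highest in set1htz1 at 0.96 ± 0.12 (adjusted p = 3.36e-06) and in set1 at 1.21 ± 0.12 (adjusted p = 1.19e-06), while RPS7B was lowest in set1htz1 at -0.56 ± 0.10 (adjusted p = 0.000234) and RPS4A the lower of the 2 called in set1 at 0.50 ± 0.14 (adjusted p = 0.0198). Dye moved with these genes: on the 4 set1 arrays their median was 0.30, -0.29, 0.44 and -0.27. It was also higher with the mutant in Cy5 in set1htz1, at 0.30, -0.25, 0.205 and -0.25, and in set1htz1sir2, at 0.99, 0.255, 1.04 and 0.26. In H3K4A, at -0.50, 0.01, 0.24 and -0.40, it did not follow the dye.

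Most calls of general stress genes were higher in 3 mutants and lower in set1. Of 20 tested, 10 were higher (50%) and 2 lower (10%) in set1htz1sir2, 15 higher (75%) and 1 lower (5%) in set1htz1, 11 higher (55%) and none lower in H3K4A, and none higher and 5 lower (25%) in set1. In the same order, the shares of all genes higher and lower were 24.1% and 26.3%, 21.2% and 26.3%, 3.59% and 0.602%, and 9.05% and 9.79%. The heat shock gene HSP12 was highest in set1htz1sir2 at 1.65 ± 0.17 (adjusted p = 3.62e-07) and in H3K4A at 0.97 ± 0.19 (adjusted p = 0.00569), where GLC3 was the lowest called at 0.51 ± 0.10 (adjusted p = 0.00566). HSP26 was highest in set1htz1 at 1.89 ± 0.09 (adjusted p = 3.4e-11) and GAC1 lowest there at -0.65 ± 0.09 (adjusted p = 7.76e-06). YGP1 was lowest in set1htz1sir2 at -1.14 ± 0.12 (adjusted p = 2.39e-07) and in set1 at -0.68 ± 0.12 (adjusted p = 0.000499). Of the 5 called lower in set1, TSL1 was the least lowered at -0.35 ± 0.11 (adjusted p = 0.0295). The part of a stress response in the values of the factors was not tested.

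**Figure D5:**
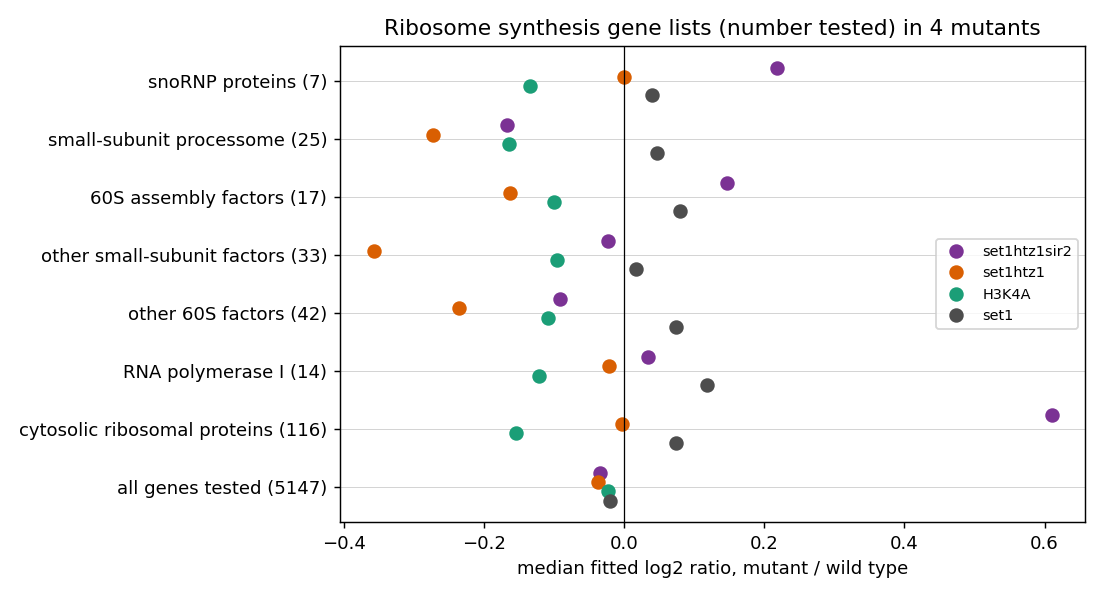
Median fitted log2 ratio of mutant over wild type (x axis) of the 3 classes, 4 other lists of ribosome synthesis genes and all genes tested (rows, with the number tested), coloured by mutant. Cytosolic ribosomal proteins have a median of 0.61 in set1htz1sir2, and both the small-subunit class and the other small-subunit factors have their lowest median in set1htz1, at -0.27 and -0.36.

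By the order of genes in the RefSeq annotation of assembly R64, which is used for names and order only because no source used here names the build behind the arrays, GAR1 and RPF1 are neighbours on chromosome VIII. GAR1 was 0.47 ± 0.13 and RPF1 0.11 ± 0.13 in set1htz1sir2, and GAR1 was -0.14 ± 0.15 and RPF1 -0.41 ± 0.13 in set1htz1. In each of these mutants 1 gene of the pair was called and the other was not; whether the 2 genes differ was not tested.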

How the data were processed

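The series gives 1 deposited table of log2 ratios from 16 2-colour arrays of ORF probes. Per the deposited description, spot quantification by the authors used GenePix, low-signal and poor-quality spots were dropped, and the log2 ratios of mutant over wild type were normalized to the total signal in each sample. No source used here names a genome build, and no scanner output was used. The log base follows from the lowest value, -6.64, which is log2 of 0.01.

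Entries of an ORF were averaged (6282 entries, 296 of them with a prefix z of unstated meaning, gave 6074 genes). UTP10, MPP10 and NOP4 had 2 entries each, and the only entries of RRP5 and UTP20 carry that prefix. An array held 5385 to 5802 values with a median from -0.04 to 0.03, and the number of arrays limits the precision. limma 3.58.1 in R 4.3.3 fitted 4 group means and a shared dye term to all 16 arrays, with empirical Bayes moderation and no further normalization. A gene needed a value on 3 of 4 arrays in every group, and p-values were adjusted over all 5147 such genes. Differences between mutants came from the same model. The script was tested on simulated data. A RefSeq table of assembly R64 served for names and gene order and matched 5539 genes.

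The factors and all gene lists were chosen with earlier results of these data known. Array values are printed for the 3 highest and 3 lowest tested factors of each class in each mutant, those called in set1 or H3K4A, those called in opposite directions, those with the 3 largest called differences between mutants in a class, and those with too few values; from each other list, the highest and lowest called gene in each mutant is named. Alternatives were other dye terms, normalizations, filters, samples and moderation, a replicate block, and leaving out each array.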

Additional observations from a re-analysis of the deposited data

Results flagged for a closer look

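Among 188 sets of 4 array values of a factor, 7 had 1 array that stood apart from the other 3 by Dixon's criterion at the 95% level, and among 16 sets of 4 medians of a class or of all factors, 1 had; chance gives about 1 in 20. In set1htz1sir2 these were the value of NHP2 on array 4, at 0.21 and lower than the other 3; NOG2 on array 2, at -0.03 and higher; MPP10 on array 1, at 0.145 and higher; and KRR1 on array 3, at -0.74 and lower. In set1htz1 they were NOP56 on array 4, at 0.43 and higher; UTP18 on array 4, at 0.07 and higher; and UTP22 on array 4, at -0.97 and lower. In set1 the median of the small-subunit class was 0.24 on array 3, above the other 3 arrays.

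Effects of different mutants differed by limma's test for 22 pairs of factor and comparison. Between set1htz1sir2 and set1htz1 the log2 difference was -0.81 for NOP56, 0.85 for NHP2, 0.73 for UTP11 and 0.45 for IMP3. Between set1htz1 and set1 it was -0.88 for ENP2, -0.84 for SOF1, -0.66 for IMP3, -0.61 for UTP14 and for IMP4, -0.56 for UTP11, -0.51 for UTP9, -0.50 for UTP13, -0.46 for YTM1, -0.45 for NOP12, -0.44 for UTP5 and -0.43 for ARX1. Between H3K4A and set1 it was -0.78 for RRP5, -0.69 for ENP2, -0.61 for NOP56, -0.59 for UTP10, and -0.53 for NOP7 and for YTM1.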

How the results depend on the processing

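The median log2 ratio of the factors moved, in every comparison and setting, by less than the SD of the single-array medians. That SD was combined over both groups where mutants were compared with each other. Leaving out a single array could hardly move the median by so much, so no stability is read from this. In set1htz1sir2, where the median was 0.03, it ran from -0.04 to 0.08 when single arrays were left out. Counts of called factors also changed. With quantile normalization 10 factors were called in set1htz1sir2 (17 as reported), 14 in H3K4A (0), 7 between set1htz1 and set1 (12) and 12 between H3K4A and set1 (6). These are 20.4%, 28.6%, 14.3% and 24.5% of the factors, against 38.4%, 15.3%, 11.4% and 11% of all genes. With a value needed on all 4 arrays of every group, 11 were called in set1htz1sir2 and 4 in set1 (7), from fewer genes. Of the factors in that fit this is 28.9% and 10.5%, against 52.3% and 18.9% of all genes. With only the arrays of the groups compared, 30 were called in set1htz1sir2, 15 between set1htz1sir2 and set1htz1 (4) and 0 between H3K4A and set1. Here the shares were 61.2%, 30.6% and 0%, against 64.1%, 24.8% and 1.87% of all genes. A dye term for each mutant gave 9 between set1htz1sir2 and set1htz1 and 1 in H3K4A, and no dye term gave 2 between H3K4A and set1. As shares these are 18.4%, 2.04% and 4.08%, against 17.6%, 5.48% and 4.12% of all genes. Leaving out all set1 arrays, a setting added after the data were seen, gave 11 between set1htz1sir2 and set1htz1 and 2 in H3K4A. That is 22.4% and 4.08% of the factors, against 17.3% and 5.46% of all genes. The causes were not tested.

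With single arrays left out, the counts ran from 9 to 21 in set1htz1sir2 (lowest without its array 2), 13 to 26 in set1htz1 (without its array 3), 0 to 0 in H3K4A, 2 to 8 in set1 (without its array 4), 3 to 8 between set1htz1sir2 and set1htz1 (highest without array 3 of set1, and 7 without array 1 of H3K4A), 5 to 14 between set1htz1 and set1 (without array 3 of set1htz1) and 2 to 8 between H3K4A and set1 (without array 3 of H3K4A). The share of all genes called fell as well. It was 42.8% in set1htz1sir2 without its array 2, 37.5% in set1htz1 without its array 3 and 11.6% in set1 without its array 4. Of the called factors, 8 of 17, 13 of 23, 1 of 7, 3 of 4, 5 of 12 and 1 of 6 kept their call in all 16 fits that left out a single array, in set1htz1sir2, set1htz1, set1, and the comparisons of set1htz1sir2 with set1htz1, set1htz1 with set1 and H3K4A with set1. The residuals of same-numbered arrays of different mutants correlated between -0.53 and 0.29. Arrays with different numbers were not compared, so whether equal replicate numbers pair the arrays cannot be told from this. A replicate block in place of the dye term called 16, 22, 0 and 8 factors in set1htz1sir2, set1htz1, H3K4A and set1, and 4, 11 and 5 in the comparisons between mutants in the order above. A planned count of promoter motifs was not run, because no promoter sequence was used here.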

Other observations

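In H3K4A the factors and the ribosomal protein genes were low on different arrays. The median of the factors was -0.04, -0.29, -0.20 and -0.08 on arrays 1 to 4, and that of the ribosomal protein genes -0.50, 0.01, 0.24 and -0.40. The median of the general stress genes was above 0 on all 4 arrays, at 0.75, 0.43, 0.43 and 0.35.

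In set1htz1sir2 the ribosomal protein genes had medians of 0.99, 0.26, 1.04 and 0.26 on arrays 1 to 4, high where the mutant was in Cy5. The factors had 0.15, -0.01, -0.10 and 0.00 on the same arrays, without that alternation.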
